A study of Mus musculus with 6 samples.

Results

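The genes described here carry glucose and amino acids into the cell, break glucose down to pyruvate and lactate, or form and regulate the mTOR kinase complexes. There are 36 of them, and they were chosen by name; a peak of accessible chromatin was assigned to a gene where the deposited annotation gave that gene as nearest and placed the peak centre at most 100 kb from its transcription start site. By that rule 137 of the 51775 peaks of the series belonged to the 36 genes, and every gene had at least 1 peak. The series is an ATAC-seq experiment, in which a transposase cuts and tags open DNA, on natural killer (NK) cells flow-sorted from mouse spleen as CD3-, CD5-, NK1.1+ and NKp46+. It compares 3 wildtype libraries (1 to 3) with 3 Rroid-deficient libraries (4 to 6), all on the C57BL6 strain and with no treatment named, from 50000 cells of each genotype. Rroid is a long noncoding RNA gene of the Id2 neighbourhood; the labels used here do not describe the mutant allele, the age or sex of the mice, or whether different mice were used for the 3 libraries of each genotype. The p-values therefore measure only the spread between libraries, which may be technical. Because the cells were assayed in bulk, a site open in more cells and a site more open in each cell cannot be told apart.

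Glucose enters through the GLUT transporters, is phosphorylated by hexokinase and committed to glycolysis by phosphofructokinase, and leaves the lower pathway as pyruvate, which becomes acetyl-CoA or lactate. mTOR complex 1 is a kinase complex that the small GTPase Rheb activates when amino acids and growth factors are present, that the TSC complex and AMPK restrain, and that favours protein synthesis, HIF-1 and SREBP activity. In NK cells interleukin-15 and activation raise mTOR signalling, nutrient uptake and glycolysis, which support growth and effector function. The assay measured chromatin accessibility and neither RNA nor metabolism.

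A library held between 27572006 and 47939665 reads in peaks, or 151 to 224 at its median peak. The deposited values are reads scaled by 1 constant per library and are called normalized reads below. At 13 adjacent peaks on chromosome 12, whose nearest gene is Gm17746, the wildtype libraries held 4696 to 6666 reads and the Rroid-deficient libraries 39 to 54. These peaks were picked for their large fall between the labelled groups, so they are no independent check of the labels. Libraries 4 and 6, the shallowest, stood above the others in the lowest decile of peaks by signal, with median log2 deviations of 0.31 and 0.20 from the mean of all libraries against -0.16 to -0.01 in the other four. Marker calls are to be read beside 10.4% higher and 8.62% lower among the promoter peaks of all genes. Of 10 NK-cell marker genes all had a promoter peak, and 6 of these fell (Prf1, Tbx21, Gzma, Itga2, Gzmb and Klrb1c), with summed promoter signals of 24524 to 27982 in wildtype and 19408 to 23284 in Rroid-deficient libraries. Of 7 T-cell markers only Cd5 and Cd3g had one, and both rose, from a sum of 96.7 to 174 up to 432 to 516; no promoter peak was assigned to Cd3d, Cd3e, Cd4, Cd8a or Cd8b1. Of the B-cell markers 2 of 6 had a promoter peak (sums of 122 to 162 in wildtype and 124 to 162 in Rroid-deficient libraries), of the myeloid markers 1 of 7 (424 to 584 and 483 to 627) and of the erythroid markers 1 of 4 (128 to 236 and 168 to 196); these ranges overlapped. Whether these marker differences bear on the results at the metabolic genes was not tested.

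The upstream bases of 5 genes are shown because their promoter peak differed between the genotypes: Hk2, Slc16a1 and Tpi1 gained and Rheb and Ddit4 lost accessibility there. Of the other called promoters, Aldoa has 3 RefSeq start sites in place of 1 and Slc7a5 was not matched, so neither is shown. Each run is the 250 bases before the RefSeq start site on the gene's strand, from GRCm38.p6 (the peaks are on mm9, so the coordinates differ). The regions are chr6:82774455-82774704 (minus strand, Hk2), chr3:104638414-104638663 (plus, Slc16a1), chr6:124814159-124814408 (minus, Tpi1), chr5:24842362-24842611 (minus, Rheb) and chr10:59951771-59952020 (minus, Ddit4). Capitals mark every match on either strand to ACGTG or GCGTG, the core of the hypoxia response element that HIF-1 binds, or to CACGTG, the E-box of MYC, which contains ACGTG.
Hk2: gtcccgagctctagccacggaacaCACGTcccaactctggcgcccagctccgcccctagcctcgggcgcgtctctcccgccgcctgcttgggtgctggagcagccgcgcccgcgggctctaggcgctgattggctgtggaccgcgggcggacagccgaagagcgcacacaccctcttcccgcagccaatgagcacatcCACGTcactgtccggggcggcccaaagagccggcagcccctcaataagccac
Slc16a1: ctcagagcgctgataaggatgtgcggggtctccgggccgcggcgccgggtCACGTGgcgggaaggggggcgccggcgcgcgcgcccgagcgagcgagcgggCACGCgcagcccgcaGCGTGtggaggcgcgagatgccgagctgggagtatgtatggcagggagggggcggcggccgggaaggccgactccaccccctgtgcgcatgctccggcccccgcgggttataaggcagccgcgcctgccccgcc
Tpi1: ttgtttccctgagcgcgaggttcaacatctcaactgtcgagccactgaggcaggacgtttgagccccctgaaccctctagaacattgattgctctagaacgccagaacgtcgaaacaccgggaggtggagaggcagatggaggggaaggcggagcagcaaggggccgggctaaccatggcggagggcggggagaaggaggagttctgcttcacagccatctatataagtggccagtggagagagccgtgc
Rheb: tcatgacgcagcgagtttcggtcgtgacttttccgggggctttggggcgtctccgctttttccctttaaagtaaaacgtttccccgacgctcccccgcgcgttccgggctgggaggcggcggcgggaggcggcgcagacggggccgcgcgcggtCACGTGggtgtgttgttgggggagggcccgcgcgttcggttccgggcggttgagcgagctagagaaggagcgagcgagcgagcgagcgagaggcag
Ddit4: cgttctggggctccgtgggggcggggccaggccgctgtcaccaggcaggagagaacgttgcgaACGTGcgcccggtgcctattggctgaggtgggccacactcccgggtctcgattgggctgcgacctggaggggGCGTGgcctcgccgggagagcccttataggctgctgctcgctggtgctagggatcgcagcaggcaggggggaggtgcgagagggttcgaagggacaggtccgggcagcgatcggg
The matches in Slc16a1 and Rheb include the full E-box, and the Tpi1 window has none of the 3 motifs. RefSeq entries were found for 32 of the 36 genes, with 46 start sites (Slc1a5, Slc2a3 and Eif4ebp1 were not matched either). ACGTG occurred upstream of 16 of the 32 genes and at 41.3% of their start sites, against 16.6% of all 32851 start sites in the table. GCGTG occurred in 18 of 32 genes and 45.7% of sites, against 28.2% of all sites, and CACGTG in 6 genes and 13.0% of sites, against 6.02%. The E-protein E-boxes CAGGTG and CAGCTG were found in 2 and 4 genes, at 6.52% and 8.70% of sites against 17.2% and 13% of all sites. TGATGCAA, the amino acid response element, was found in 0 member genes (0.791% of all sites), and TCACNCCAC, a sterol regulatory element, in 1, Pkm (1.05% of all sites). The median GC content was 62.8% over the member sites and 52.4% over all sites, and a match to letters is no evidence of a bound factor.

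Accessibility at these genes changed in both directions. Of the 137 peaks, 21 were higher and 11 lower in Rroid-deficient cells at a Benjamini-Hochberg adjusted p under 0.05 (limma on log2 of normalized reads plus 1, over all peaks), and 105 passed in neither direction. That is 23.4% of the member peaks in either direction, 15.3% higher and 8.03% lower, beside backgrounds of 25.8% of all 51775 peaks in either direction, 13.8% higher and 12.1% lower. The share is thus near that of all peaks. Counts by gene group further below are to be read beside the same shares of all peaks. The median log2 fold change was 0.08 over the member peaks and -0.01 over all peaks, and the member values ranged from -1.04 to 1.58. The 2 groups of libraries did not overlap at 51 of the 137 peaks, against 40.1% of all peaks. By gene, 12 of the 36 had only higher calls, 5 only lower calls, 2 (Pdk1 and Ddit4) had both, and 17 had none. Most differences were moderate: 4 higher peaks and 1 lower peak reached a 2-fold change. Scaled by total reads in peaks the counts were 27 higher and 6 lower, and with a loess fit by abundance 28 and 6. The counts over all peaks moved too, from 7126 higher and 6257 lower to 8229 and 4944 by total reads, and 7702 and 6540 with loess. Without the shallow libraries 4 and 6 the median log2 fold change was 0.12 over the member peaks and -0.02 over all peaks. That refit left library 5 as the only Rroid-deficient library. A call lost in it, here or below, therefore cannot be told apart from lost replication.

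**Figure D1:**
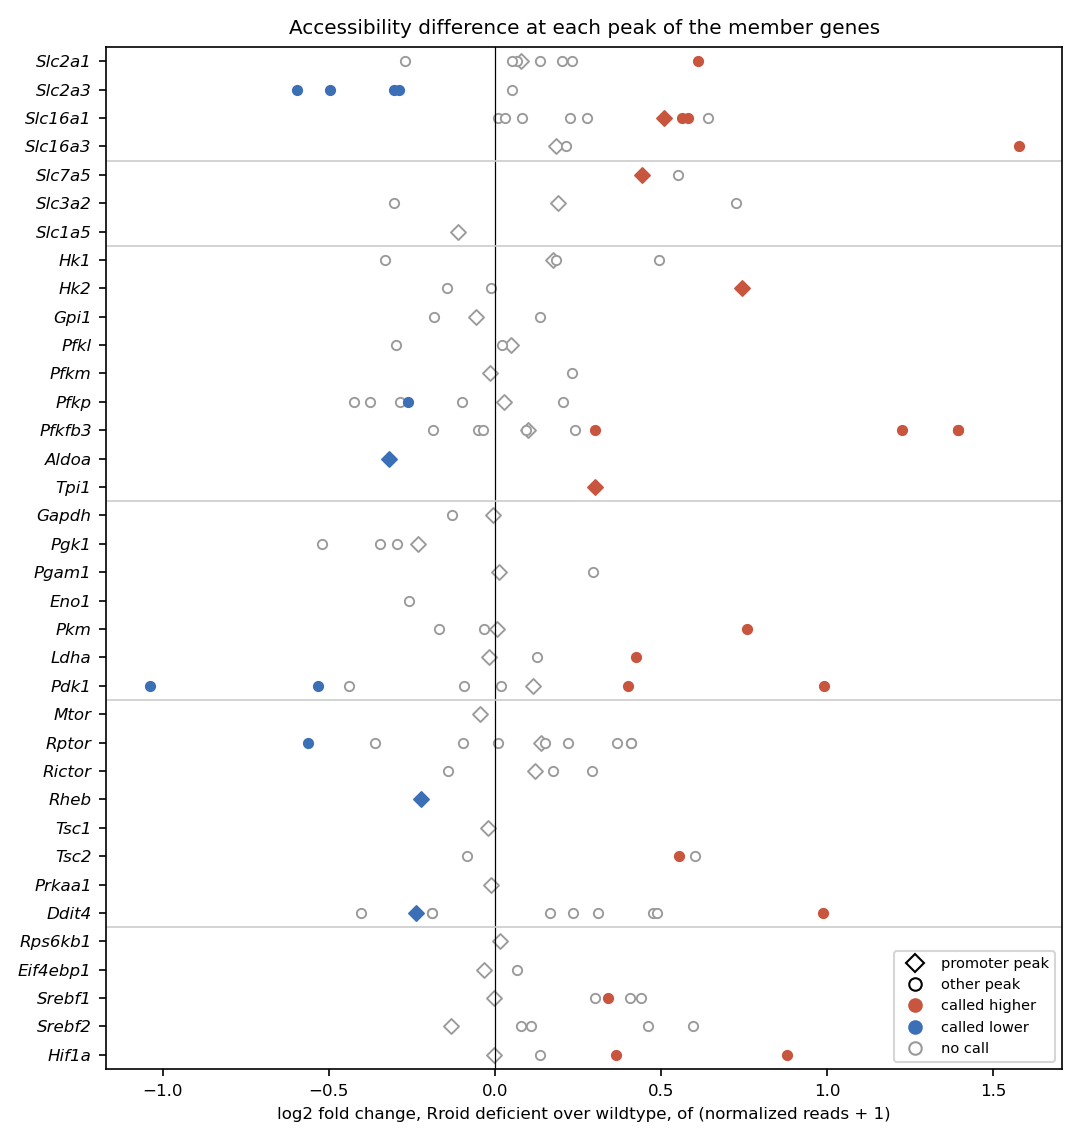
Log2 fold change (Rroid deficient over wildtype, of normalized reads plus 1) at each of the 137 peaks, by gene; diamonds are promoter peaks, circles other peaks, and filled red and blue symbols are peaks called higher and lower. Both colours occur, with the highest value, 1.58, at Slc16a3 and the lowest, -1.04, at Pdk1.

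**Figure D2:**
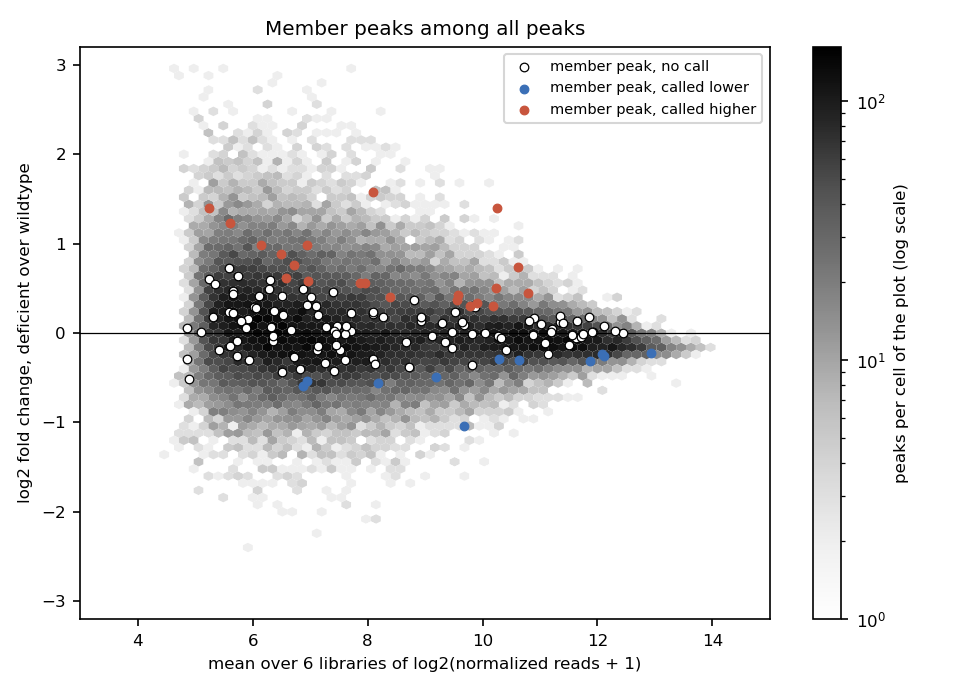
Log2 fold change against the mean over 6 libraries of log2(normalized reads + 1) for the peaks of the series that fall within the axes (grey cells, shaded by the number of peaks on a log scale) and the member peaks (points, coloured by call). The member peaks lie within the spread of the others, between -1.04 and 1.58.

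By the rule used here, 7 of the 36 genes differed at the promoter peak. A promoter peak, the peak of a gene nearest its start and within 1 kb of it, was present for 33 of the 36 genes. Eno1, Slc2a3 and Tsc2 had none by this rule. Called peaks outside it lay at their start sites. These were the lower Slc2a3 peak at 1013 bp, the lower Eno1b peak and a peak listed under Nthl1. The Nthl1 peak, at the Tsc2 start, rose from 201 ± 6.17 to 283 ± 25.7 (SD, n = 3 each, adjusted p = 0.0224 by limma). It was looked up after the values were seen. The rule's edge passes between Slc1a5, whose peak lies 973 bp from the start, and Slc2a3, at 1013 bp. Hk2, Slc16a1, Slc7a5 and Tpi1 rose at the promoter, Aldoa, Rheb and Ddit4 fell, and 26 passed in neither direction. The 4 higher and 3 lower of 33 stand beside 10.4% higher and 8.62% lower among the promoter peaks of 11573 genes. The member promoters were high, with a median wildtype signal of 2451 normalized reads against 1360 over all promoter peaks, and 6 of 33 were annotated to a CpG island (18.2%, against 11.9%). Per kb of peak, the highest wildtype promoter levels were 3275 normalized reads at Hif1a, 3123 at Slc2a1, 3049 at Mtor and 3045 at Rheb, and the lowest was 216 at Pfkm. The 3 lower promoter calls did not hold without libraries 4 and 6, a refit that left library 5 as the only Rroid-deficient library. It cannot tell an unstable call from lost replication. With library 2, 4 or 6 alone left out, 0 promoter peaks were called lower by limma, where 4, 4 and 3 had an unadjusted p under 0.05.

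Glucose and lactate transport. Of the 25 peaks of these 4 transporter genes, 5 rose and 4 fell (median log2 fold change 0.14). At the called peaks the lactate transporter genes gained accessibility, and Slc2a3, which encodes the glucose transporter GLUT3, lost it. The largest rise of all member peaks was in intron 5 of Slc16a3, the gene of the lactate exporter MCT4 (mm9 chr11:120818251-120819320). Its normalized reads were 192, 155 and 132 in wildtype libraries 1 to 3 and 444, 483 and 494 in Rroid-deficient libraries 4 to 6. The groups lay far apart, with means of 159.9 ± 30.5 and 474 ± 26.3 (SD, n = 3 each), 2.96-fold higher (log2 fold change 1.58, SE 0.16, adjusted p = 1.58e-06). The Slc16a3 promoter peak itself held 463 ± 95.6 and 521 ± 60.3 (SD, n = 3 each), and its groups overlapped (adjusted p = 0.389).

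At the promoter of Slc16a1, which encodes the lactate and pyruvate transporter MCT1 (chr3:104441801-104443511), the values were 1143, 1009.9 and 877 in wildtype and 1416, 1538 and 1339.6 in Rroid-deficient libraries. All 3 Rroid-deficient libraries were above all wildtype libraries, by 1.42-fold (log2 fold change 0.51, SE 0.11, adjusted p = 0.00233). A peak in intron 1 at 2410 bp from the start (204 ± 31.9 and 301 ± 43.3) and an intergenic one at 31767 bp (102 ± 19.1 and 151 ± 8.89; SD, n = 3 each) also rose, with adjusted p of 0.0177 and 0.0395. These 2 smaller calls were lost when any of libraries 2, 3 or 4 was left out, and the farther one also without 5 or 6. The other 6 peaks of Slc16a1 did not pass, and the one at 22379 bp held 33.8 to 48.7 in wildtype and 46.4 to 85.7 in Rroid-deficient libraries.

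All 4 called peaks of Slc2a3 fell. The farthest, an intergenic CpG-island peak 21625 bp upstream (chr6:122713448-122715329), held 676, 644 and 752 normalized reads in wildtype and 556, 456 and 459 in Rroid-deficient libraries. The groups did not overlap, and the means were 690.5 ± 55.7 and 490.3 ± 56.6 (SD, n = 3 each; log2 fold change -0.50, SE 0.12, adjusted p = 0.00625). The peak nearest the start, in intron 1 at 1013 bp (chr6:122690033-122693467), went from 1678, 1707 and 1938 to 1552, 1337 and 1421 (log2 fold change -0.30, adjusted p = 0.0278). Peaks 16291 and 13401 bp upstream fell by 0.29 and 0.59 on the log2 scale (adjusted p = 0.0301 and 0.0354). The 3 weaker calls were lost under 7 alternatives each, among them scaling by total reads and leaving out any of libraries 2, 3, 5 or 6 (adjusted p up to 0.178).

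Slc2a1, the gene of the main glucose transporter GLUT1, had 8 peaks, of which 1 passed. That peak, in intron 1 at 7742 bp, held 78.4, 73.1 and 76.2 in wildtype and 135, 102 and 115 in Rroid-deficient libraries (log2 fold change 0.61, adjusted p = 0.0401), a call lost without any of libraries 2, 3, 4 or 6. The Slc2a1 promoter was among the highest of the set and differed little, with 4319 ± 218 and 4556 ± 101 (SD, n = 3 each; 95% interval of the log2 fold change -0.08 to 0.24), although the loess scaling gave 0.18 and an adjusted p of 0.0312.

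**Figure D3:**
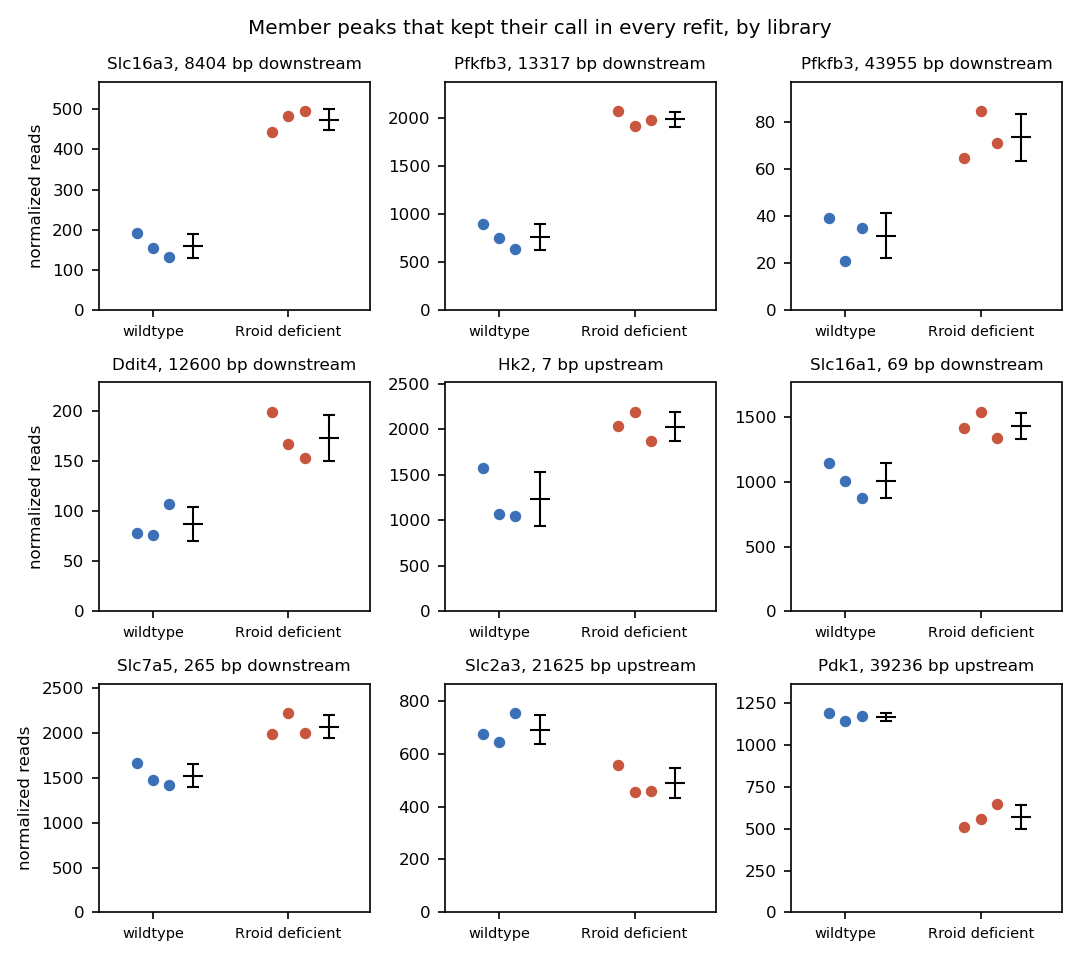
Normalized reads per library at the 9 member peaks whose call held under every alternative that could be run for them, with wildtype libraries in blue, Rroid-deficient libraries in red, and the mean ± SD of each group (n = 3) in black. At each of them the groups do not overlap, and 7 rise while the peaks of Slc2a3 and Pdk1 fall.

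Amino acid transport. Slc7a5, the light chain of the large neutral amino acid transporter that takes up leucine, rose at its promoter. The peak (chr8:124430301-124432342) held 1669.6, 1479 and 1422 normalized reads in wildtype and 1989, 2219 and 2001 in Rroid-deficient libraries. The groups were apart by 1.36-fold (1524 ± 129.5 and 2069.7 ± 129; SD, n = 3 each; log2 fold change 0.44, SE 0.09, adjusted p = 0.00212). Its partner chain Slc3a2 (CD98) did not pass at the promoter, at 2451 ± 314 and 2788 ± 298 (adjusted p = 0.195), nor at a low peak 18303 bp away with 23.4 to 46.2 in wildtype and 57.1 to 66.5 in Rroid-deficient libraries (adjusted p = 0.0965). The promoter of the glutamine transporter gene Slc1a5 held 2261 ± 235 and 2088 ± 136 (SD, n = 3 each; adjusted p = 0.42), and its groups overlapped. In all 1 of the 6 peaks of these 3 genes rose and 0 fell by limma, 0 also at an unadjusted p under 0.05 and by edgeR and DESeq2.

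Upper glycolysis. Of 34 peaks of 9 genes, 6 rose and 2 fell (median log2 fold change 0.02). Hk2, which encodes the inducible hexokinase that phosphorylates glucose, had the largest promoter change of the set. Its peak (chr6:82723053-82725857), 7 bp from the start, held 1573, 1072 and 1045 normalized reads in wildtype and 2033, 2184 and 1868 in Rroid-deficient libraries. Wildtype library 1 was the highest of its group and still below every Rroid-deficient library, and the means of 1229.9 ± 297 and 2028 ± 158 (SD, n = 3 each) differed 1.65-fold (log2 fold change 0.74, SE 0.13, adjusted p = 0.00042). The constitutive hexokinase gene Hk1 held 3464 ± 36.5 and 3913 ± 202 at its promoter peak, which the annotation ties to the antisense transcript Hk1os, and did not pass (log2 fold change 0.17, adjusted p = 0.107).

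Pfkfb3 makes fructose-2,6-bisphosphate, the activator of phosphofructokinase, and had 4 rising peaks of 10. In intron 1 at 13317 bp (chr2:11461759-11462719) the values were 901, 747 and 637 in wildtype and 2066, 1911 and 1978 in Rroid-deficient libraries. Every Rroid-deficient library was above every wildtype library, and the mean rose 2.61-fold from 762 ± 133 to 1985 ± 78.0 (SD, n = 3 each; log2 fold change 1.39, SE 0.12, adjusted p = 2.15e-07). Measured from the other annotated start site, an intergenic peak at 43955 bp rose from 39.2, 21.0 and 35.2 to 65.0, 84.7 and 71.3 (adjusted p = 0.00661). A peak at -24307 bp from that site, which lies in intron 1 of Pfkfb3, rose from 29.4, 17.6 and 21.5 to 62.3, 49.5 and 71.3 (adjusted p = 0.00448). Both are low peaks, the second with only 21 to 59 reads per library, and its call was lost without libraries 4 and 6 (adjusted p = 0.125). A smaller rise at 5867 bp (792 ± 31.3 to 976 ± 23.0, adjusted p = 0.0336) was lost without any of libraries 1, 2, 4, 5 or 6. The Pfkfb3 peaks nearest the 2 annotated start sites did not pass: 2000.2 ± 127 and 2148 ± 201 at -250 bp (SD, n = 3 each; adjusted p = 0.462), and 3038 to 3378 over all 6 libraries at 434 bp (adjusted p = 0.684).

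Among the other enzymes of this stretch, Tpi1 (triosephosphate isomerase) rose at its promoter from 1078, 1069 and 1005 to 1286, 1396 and 1211 (1.24-fold, log2 fold change 0.30, SE 0.10, adjusted p = 0.0297). Aldoa (aldolase A) fell from 4016, 4701 and 3907 to 2906, 3853 and 3401 (log2 fold change -0.32, SE 0.10, adjusted p = 0.0286). In neither did the groups overlap, but the Tpi1 call was lost with any library but 1 left out (adjusted p up to 0.0951), and the Aldoa call without 2, 4 or 6 and without both 4 and 6 (log2 fold change -0.12, adjusted p = 0.618). Pfkp, the platelet-type phosphofructokinase gene, fell at an intron 2 peak from 4859.7 ± 307 to 4051 ± 71.9 (SD, n = 3 each; adjusted p = 0.0188), a call lost without 3, 4 or 6 and under loess scaling. Its promoter held 5024 ± 372 and 5115 ± 205. No peak of Gpi1, Pfkl or Pfkm passed.

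Lower glycolysis, lactate and pyruvate. Of 24 peaks of 7 genes, 4 rose and 2 fell (median log2 fold change -0.02). The promoters of the enzymes did not pass: Gapdh held 3442 ± 197 and 3431 ± 217 normalized reads, Ldha (lactate dehydrogenase A) 3022 ± 56.8 and 2989 ± 172, and Pkm (pyruvate kinase) 3851 ± 132 and 3879 ± 376 (SD, n = 3 each). Their 95% intervals of the log2 fold change were -0.18 to 0.17, -0.19 to 0.15 and -0.17 to 0.18. Pgk1 (phosphoglycerate kinase) had values of 2293, 2454 and 2635 in wildtype and 2046, 2199 and 2032 in Rroid-deficient libraries; the groups did not overlap, yet the adjusted p was 0.0588. Away from the start sites, an intergenic peak 13585 bp upstream of Ldha rose from 660.5 ± 56.1 to 887 ± 51.4 (adjusted p = 0.00834; lost without library 6, with adjusted p = 0.0895 without 4 and 6). A peak at the end of Pkm rose from 80.5 ± 7.74 to 139 ± 32.8 (SD, n = 3 each; adjusted p = 0.0179), but not without library 4 or 5.

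Pdk1, the kinase that turns off pyruvate dehydrogenase and so diverts pyruvate from acetyl-CoA, had 2 lower and 2 higher peaks of 8. The largest fall of all member peaks lay 39236 bp upstream (chr2:71671274-71672817), inside intron 10 of Itga6, an integrin gene, so that its assignment to Pdk1 rests on the nearest start site alone. It held 1189.6, 1145 and 1173 in wildtype and 508, 559 and 647 in Rroid-deficient libraries. The groups were far apart, 2.05-fold lower with means of 1169 ± 22.5 and 571 ± 70.3 (SD, n = 3 each; log2 fold change -1.04, SE 0.11, adjusted p = 3.46e-06). A weaker fall in intron 20 of Itga6 (148 ± 13.2 to 102 ± 9.68, adjusted p = 0.0468) was lost with any library but 5 left out. Between Itga6 and Pdk1, a peak at -9503 bp rose from 53.4, 37.8 and 58.6 to 95.5, 94.2 and 106 (adjusted p = 0.00695; 0.107 without libraries 4 and 6), and one at -6656 bp from 291 ± 44.4 to 382 ± 13.6 (adjusted p = 0.0484; not called by edgeR or DESeq2). The Pdk1 promoter held 2617 ± 226 and 2829 ± 67.7 (SD, n = 3 each; adjusted p = 0.348).

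Eno1, enolase 1, had 1 assigned peak, 17503 bp upstream, with 52.9 to 64.5 normalized reads in wildtype and 41.9 to 52.0 in Rroid-deficient libraries (adjusted p = 0.513). A start-site peak that the annotation ties to an Eno1 transcript is listed under the symbol Eno1b and so is no member peak; it was looked up after the values were seen. That peak (chr4:149610630-149612138) fell from 4074 ± 237 to 3456 ± 86.2 (SD, n = 3 each; log2 fold change -0.24, adjusted p = 0.0348), and one in intron 2 of the same entry from 1186 ± 82.8 to 931 ± 75.6 (adjusted p = 0.0192).

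mTOR complexes and their upstream regulators. Of 31 peaks of 8 genes, 2 rose and 3 fell (median log2 fold change 0.14), and the kinase gene itself did not pass. The only peak of Mtor, at its promoter, held 3397, 3261 and 3624 normalized reads in wildtype and 3249, 3364 and 3351 in Rroid-deficient libraries. The groups overlapped, and the 95% interval of the log2 fold change was -0.21 to 0.12. The promoters of Rptor (464 ± 47.6 and 513 ± 85.1), the defining subunit of complex 1, and Rictor (2515 ± 168 and 2737 ± 171), that of complex 2, did not pass either (SD, n = 3 each; adjusted p = 0.498 and 0.324). Neither did those of Tsc1, a subunit of the TSC complex (1902 ± 126 and 1878 ± 191), and Prkaa1, a catalytic subunit gene of AMPK (902 ± 85.1 and 892 ± 22.7).

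Rheb, the activator of mTOR complex 1, and Ddit4 (REDD1), a stress-induced inhibitor acting through the TSC complex, both fell slightly at the promoter. Rheb (chr5:24346948-24349735) had the highest wildtype signal of the member peaks and went from 7933, 9072 and 8472 to 7072, 7625 and 7110.2 (log2 fold change -0.22, SE 0.07, adjusted p = 0.0345). Ddit4 (chr10:59413235-59415562) went from 4539, 4634 and 4844 to 3712, 4222 and 3980.1 (log2 fold change -0.24, SE 0.08, adjusted p = 0.0342). The groups did not overlap in either gene, but both calls were lost under loess scaling, without any of libraries 2, 3, 4 or 6, and without both 4 and 6 (adjusted p = 0.454 for Rheb without 4 and 6 and 0.504 for Ddit4). An intergenic peak of Ddit4 at 12600 bp (chr10:59401499-59402338) moved the other way, from 78.4, 76.5 and 107 to 199, 168 and 154. Its groups were well apart, 1.98-fold higher with means of 87.4 ± 17.4 and 173 ± 23.2 (SD, n = 3 each; log2 fold change 0.99, SE 0.20, adjusted p = 0.00169). The other 8 Ddit4 peaks did not pass.

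In intron 1 of Rptor, 20383 bp from the start, 469, 344 and 269 in wildtype stood against 198, 309 and 219 in Rroid-deficient libraries (log2 fold change -0.56, adjusted p = 0.045). This was the only called member peak whose groups overlapped, and its fold was -0.18 without libraries 4 and 6 (adjusted p = 0.692) and -0.35 without library 1 (adjusted p = 0.204); leaving out 2, 4 or 6 alone also ended the call. An intron 29 peak of Tsc2, the other TSC subunit, rose from 196 ± 44.7 to 284 ± 27.7 (SD, n = 3 each; adjusted p = 0.0297), though not without library 3, 5 or 6. Beyond the 100 kb limit, and so outside the counts, an intron 3 peak of Rptor at 115295 bp rose from 23.2 ± 12.7 to 81.2 ± 4.47 (SD, n = 3 each; adjusted p = 0.000668).

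**Figure D4:**
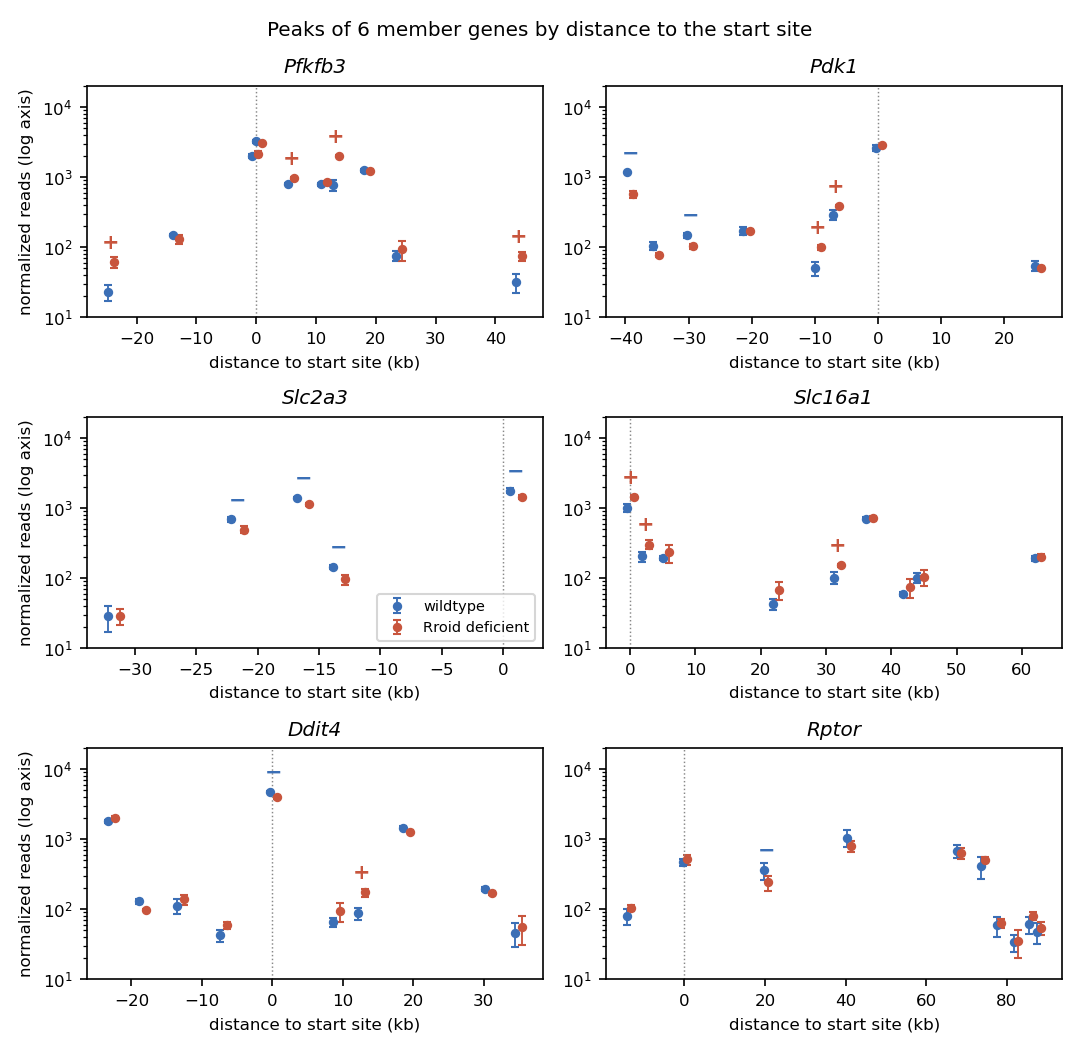
Normalized reads (log axis, mean ± SD, n = 3 per genotype) at each peak of 6 genes by distance to the start site in kb, wildtype in blue and Rroid deficient in red; a plus marks a peak called higher and a minus one called lower, and the dotted line is the start site. Pfkfb3 and Slc16a1 have rises only, Slc2a3 has falls only, Pdk1 and Ddit4 have both, and Rptor has 1 fall among 10 peaks. In the Pfkfb3 panel each distance is from the nearer of its annotated start sites. There the dotted line stands for both sites, and the peaks are not in genomic order.

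Targets and transcription factors. Of the 17 peaks of Rps6kb1, Eif4ebp1, Srebf1, Srebf2 and Hif1a, 3 rose and 0 fell by limma (0 also at an unadjusted p under 0.05 and by edgeR and DESeq2); the median log2 fold change was 0.13. None of the 5 promoters passed. That of Hif1a, the oxygen-regulated subunit of HIF-1, was nearly level at 5561 ± 71.3 and 5548 ± 209.7 (SD, n = 3 each; 95% interval of the log2 fold change -0.16 to 0.15). Hif1a rose instead at intergenic peaks 65575 bp upstream, from 662 ± 20.9 to 855 ± 88.4, and 26500 bp upstream, from 66.8 ± 19.1 to 124 ± 32.9 (SD, n = 3 each; adjusted p = 0.0219 and 0.0172). The first was lost without library 2, 3 or 5 and the second without 1, 2 or 4. Another peak, 128055 bp upstream and beyond the limit, also rose, from 84.6 ± 18.0 to 145 ± 27.7 (SD, n = 3 each; adjusted p = 0.0182).

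Srebf1, a transcription factor of lipid synthesis, rose 2381 bp upstream from 949, 852 and 759 to 1026, 1151 and 1058 (log2 fold change 0.34, adjusted p = 0.0282; lost without any of libraries 2, 3, 5 or 6) but held 1055 ± 70.5 and 1057 ± 129 at its promoter. Srebf2, its cholesterol-regulating relative, held 3061 ± 290.5 and 2796 ± 288 at the promoter (SD, n = 3 each; adjusted p = 0.343). The promoters of Rps6kb1, the S6 kinase that mTOR complex 1 phosphorylates, and of Eif4ebp1, the translation repressor it inactivates, held 2340.2 ± 213 and 2372 ± 276, and 566 ± 45.9 and 554 ± 61.1 (SD, n = 3 each); in both genes the groups overlapped.

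The signal summed over all peaks of a gene gives 1 value per gene, which for the 9 genes with 1 peak is that peak. By this measure 6 of the 36 genes were higher and 3 lower, beside 10.8% higher and 9.51% lower of 16285 genes. The higher genes were Hk2 (log2 fold change 0.60, adjusted p = 0.00296), Slc7a5 (0.45, 0.00379), Slc16a3 (0.57, 0.0105), Slc16a1 (0.33, 0.0132), Pfkfb3 (0.23, 0.0217) and Tpi1 (0.30, 0.0417). The lower genes were Slc2a3 (-0.34, 0.00932), Aldoa (-0.32, 0.0410) and Rheb (-0.22, 0.0413). Hk2, Slc7a5 and Slc16a3 kept this call under every alternative run (16 each, and 15 for Slc16a3, which the filter at the median signal leaves out). Slc16a1 lost it without library 3 (adjusted p = 0.0522) and Slc2a3 without library 6 (adjusted p = 0.0600). The other genes were less stable. Tpi1 lost its call with any 1 library left out. Aldoa lost it under 8 of 16 alternatives (adjusted p up to 0.669), Rheb under 6 of 16 (up to 0.528) and Pfkfb3 under 4 of 16 (up to 0.160).

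Genes of the same pathways outside the 36 give the wider setting. Among 79 peaks of 19 other nutrient transporter genes, 21 rose and 3 fell (26.6% and 3.80%, beside 13.8% and 12.1% of all peaks; median log2 fold change 0.22). Without libraries 4 and 6 these counts were 13 and 3, beside 3728 and 3653 of all 51775 peaks. The rise with the smallest p was in an intron of Slc7a1, a transporter of arginine and lysine (chr5:149188307-149189738), where 767, 564 and 502 normalized reads in wildtype stood against 2204, 2175 and 2286 in Rroid-deficient libraries (3.64-fold, adjusted p = 2.65e-08). Slc43a1, a leucine transporter gene, rose 3.90-fold at 1571 bp upstream, from 76.2 ± 7.63 to 297 ± 56.3 (SD, n = 3 each; adjusted p = 1.11e-06). Slc16a7, the pyruvate and lactate transporter MCT2, fell 60439 bp upstream from 1383 ± 165 to 845 ± 33.2 (SD, n = 3 each; adjusted p = 0.00011).

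The remaining lists had calls in both directions, to be read beside the same 13.8% higher and 12.1% lower of all peaks. Other glycolytic, pentose phosphate and pyruvate genes had 76 peaks, of which 7 rose and 10 fell. A fall was near Bpgm, which makes 2,3-bisphosphoglycerate (183 ± 34.8 to 72.7 ± 7.34, SD, n = 3 each, adjusted p = 0.000179 by limma). A rise was at a promoter peak listed under Pgm2, a phosphoglucomutase gene (1078 ± 44.2 to 1478 ± 61.6, SD, n = 3 each, adjusted p = 0.00163 by limma). The annotation places that peak in exon 1 of a transcript that RefSeq lists under Pgm1. Of 143 peaks of other mTOR, AMPK and AKT genes, 14 rose and 18 fell. Among these, Fnip2, a partner of folliculin, fell at 2 intronic peaks (439 ± 72.7 to 165 ± 7.26 and 382 ± 22.5 to 157 ± 16.3, SD, n = 3 each). The rise with the smallest p was assigned to Tbc1d7 but lies inside Gfod1 (1073 ± 136 to 1894 ± 97.5). Prkag2, a regulatory AMPK subunit, rose at an intronic peak (46.2 ± 5.37 to 143 ± 31.6). HIF, MYC and hypoxia genes had 6 and 6 of 60, with 2 rising intronic peaks of Max, the partner of MYC (145 ± 18.6 to 365 ± 24.4 and 88.4 ± 11.4 to 217 ± 22.6), a fall assigned to Max inside Fntb (782 ± 58.6 to 500.1 ± 33.3), and a fall near Txnip, an inhibitor of glucose uptake (588 ± 35.1 to 368 ± 36.3; SD, n = 3 each). SREBP and lipid synthesis genes had 2 and 3 of 32.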

How the data were processed

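The deposited table holds, for 51775 consensus peaks on mm9, a normalized read signal per library with each peak's nearest gene, distance to the start site and feature class. Tools named, per the submitters' processing notes, include HOMER, MACS2 2.1.0, R 3.1.1, DiffBind, Trimmomatic 0.32, BWA and bcl2fastq 2.16.0. How duplicates and cut-site shifts were treated is not given in the sources used here. Each signal value deposited by the authors is a whole number of reads times 1 constant per library: 100% of values came out whole within 0.01, so reads were recovered by division.

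Values were tested as log2(value + 1) with limma 3.58.1 (trend, R 4.3.3) over all peaks, 3 against 3 libraries, with Benjamini-Hochberg adjustment over all peaks and a call at an adjusted p under 0.05; p is two-sided. Peaks needed a value of 10 in 3 libraries, which removed 0. Summed signals were tested likewise over 16285 genes. The fit was tested on simulated data with 1 dispersion for all peaks and far fewer changed peaks than were called here. That test does not measure error rates in these data. Alternatives were edgeR 4.0.16 and DESeq2 1.42.0 on recovered reads, other scalings, pseudocounts and filters, and each library left out; leaving out libraries 4 and 6 together was added after seeing the data. Fold changes are on the log2(value + 1) scale, which understates low peaks. Precision is limited by 3 libraries per genotype and, at low peaks, by read number (at least 17 reads per library at every member peak).

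The peaks to name were picked by rule. They were up to 12 called peaks per direction with the smallest p (at most 2 per gene), called promoter peaks and the 6 highest, the 4 largest uncalled changes, and up to 2 called peaks per direction of each other pathway list. Some of these are not described: uncalled peaks of Tsc2 and Srebf2, and called peaks near Rpia, Dlat, Slc16a7, Scd1, Scd2 and Fasn. Further member peaks were added. The members and lists were chosen with earlier results of these data known. Columns were assigned to a genotype by name; the final digits of the Rroid-deficient columns (4 to 6) match no sample title. Promoter sequences are RefSeq's (GRCm38.p6).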

Additional observations from a re-analysis of the deposited data

How the results depend on the processing

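No called member peak and no member gene called by summed signal reversed under the alternatives. For the other genes named, the calls under the alternatives were not looked up peak by peak. Of the 32 called member peaks, 9 kept their call under every alternative run for them (16, or 15 for the Ddit4 peak and the farther Pfkfb3 peak, which the filter at the median signal leaves out): 2 of Pfkfb3 (13317 and 43955 bp) and 1 each of Slc16a3, Ddit4 (12600 bp), Hk2, Slc16a1 (69 bp), Slc7a5, Slc2a3 (-21625 bp) and Pdk1 (-39236 bp). Of the other 23, 21 were lost with 1 library left out. The 21 higher of 137 member peaks became 13 of 74 among peaks at or above the median signal, beside 3525 of all 25888 such peaks. They became 11 of the 63 within 10 kb and 10 at an adjusted p under 0.01. Counts over all peaks were not made at those limits. With 1 library left out the higher member peaks numbered 13 to 20 (13 without 2 or 6). Higher calls over all peaks then numbered 5218 to 7508, against 7126 in the main fit. The 11 lower member peaks became 6 when scaled by total reads, 6 with loess, 4 of the 63 within 10 kb and 2 at 0.01. With 1 library left out they numbered 2 to 12 (3 without 2, 5 without 3 or 4, 2 without 6). Lower calls over all peaks fell as well, from 6257 to 4039 without 2, 4606 without 3, 4854 without 4 and 4173 without 6. The median log2 fold change of 0.08 became 0.14 by total reads, 0.0247 among peaks at or above the median and 0.12 without 4 and 6. The median over all peaks moved with it, from -0.01 to 0.05 by total reads, -0.07 at or above the median and -0.02 without 4 and 6. Promoter calls went from 4 higher to 8 with loess, and from 3 lower to 1 with loess. With 1 library left out 0 to 4 promoter peaks were called lower. There were 0 by limma without 2, 4 or 6, where 4, 4 and 3 had an unadjusted p under 0.05, and 1 without 3. Genes lower by summed signal went from 3 to 1 with loess, and to 0 to 4 with 1 library left out. By limma there were 0 without 6, with 4 at an unadjusted p under 0.05, and 1 without 2, 3 or 4. Counts over the promoter peaks or summed signals of all genes were not made for these refits. The causes were not tested. No paired analysis was possible because the Rroid-deficient columns (4 to 6) could not be tied to the replicate numbers of the sample titles; whether libraries were prepared in pairs is unknown.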
